A study of Mus musculus with 24 samples.

Results

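The genes described here are 32 genes of cholesterol synthesis, uptake and handling, out of 24537 genes in the deposited table of mouse CD8+ T cells exposed to bile acids. They were chosen by symbol, with earlier results of these data known. Each matched 1 row, and all 32 had enough counts to be tested. They are grouped by role into 7 early enzymes of the mevalonate pathway, 11 late enzymes that make and finish the sterol, 2 lipoprotein receptors, 4 genes of sterol sensing, 5 genes of sterol transport and storage, and 3 enzymes of branches that make other isoprenoids. The cells had been activated in culture, and RNA was sequenced from 8 groups of 3 libraries. The acid groups given 50 µM were lithocholic acid (LCA) and its relatives isolithocholic acid (IsoLCA), isoallolithocholic acid, here IsoAlloLCA, dehydrolithocholic acid, here DehydroLCA, and ursodeoxycholic acid (UDCA). The groups given 100 µM were the taurine conjugates taurochenodeoxycholic acid (TCDCA) and taurocholic acid (TCA). They were set against the group labelled control, of cells given no bile acid. Exposure was 24 h in the series' design text and overnight in the labels' protocol. Strain and solvent were not given, nor whether replicates were separate animals or cultures. The p-values therefore rest on a spread between libraries that may be only technical.

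Cells make cholesterol from acetyl-CoA, first through mevalonate to farnesyl pyrophosphate and then through squalene and lanosterol. When sterol in the endoplasmic reticulum is low, Scap carries the membrane-bound factor encoded by Srebf2 to the Golgi, where it is cut and released to switch on most enzymes of the pathway. When sterol is plentiful, Insig proteins hold Scap back and the enzyme genes are turned down together. Activated T cells need sterol for new membrane and are known to raise this programme when they begin to divide.

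The 24 libraries held 25998051 to 41024340.5 counts in genes. Counts in exons were 75.6% to 84.7% of the library totals, and this share was lowest on average in IsoAlloLCA (78.3% ± 2.78, against 82.6% ± 1.37 in control, SD, n = 3 each). Its part in the IsoAlloLCA results was not tested. Cd8a ran from 557 to 774 CPM and Cd4 from 0.28 to 1.16 CPM over all libraries. Cd8a rose with TCDCA (0.28 ± 0.04), UDCA (0.22 ± 0.04) and LCA (0.10 ± 0.04), and Cd8b1 rose with UDCA (0.16 ± 0.05). Neither passed with IsoAlloLCA (-0.07 ± 0.04 and 0.06 ± 0.05). The summed level of 6 myeloid markers was 5.62 to 8.01 CPM in IsoAlloLCA libraries and 2.79 to 3.50 CPM in control libraries. That sum was mostly Cd68, a lysosomal protein gene, while Csf1r, Adgre1 and Lyz2 reached at most 0.15, 0.083 and 0.335 CPM in any library. Cd68 rose with IsoAlloLCA (1.12 ± 0.15) and LCA (0.40 ± 0.15). Itgam, at most 0.55 CPM in any library, fell with DehydroLCA (-2.15 ± 0.56). The sum of 2 NK cell markers was 1.18 to 1.64 CPM in IsoAlloLCA libraries and 0.55 to 0.90 CPM in control libraries. Klrb1c, one of these, rose with IsoAlloLCA (1.07 ± 0.26), as did Cd4 (0.76 ± 0.24) and the myeloid marker Itgax (adjusted p = 0.0186). Of the markers listed with Cd4, Foxp3 ran from 7.74 to 11.1 CPM over all libraries and rose with IsoAlloLCA (0.23 ± 0.07). Cd40lg did not pass (-0.46 ± 0.41). The T cell markers Cd3d (0.58 ± 0.05), Cd3g (0.56 ± 0.05) and Cd3e (0.30 ± 0.05) rose with IsoAlloLCA, Lck fell (-0.21 ± 0.04), and Cd2 and Thy1 did not pass. Thy1 rose with TCDCA (0.25 ± 0.04), IsoLCA (0.19 ± 0.04) and UDCA (0.15 ± 0.04). Cd3g (0.24 ± 0.05) and Cd3d (0.17 ± 0.05) rose with IsoLCA, and Lck fell with LCA (-0.11 ± 0.04). The sum of 4 B cell markers was 4.30 to 4.48 CPM in LCA, 4.05 to 5.08 CPM in IsoAlloLCA and 5.95 to 6.35 CPM in control libraries. That sum was mostly Cd79b, which fell with LCA (-0.54 ± 0.11) and IsoAlloLCA (-0.45 ± 0.11). Cd79a reached at most 0.47 CPM in any library and had 0.49 ± 0.40 with LCA and 0.47 ± 0.42 with IsoAlloLCA. Neither passed. Of 3 hepatic or stromal markers, Alb was at 0 in each library, Col1a1 reached at most 0.37 CPM and Epcam ran from 2.68 to 4.38 CPM. Epcam rose with LCA (0.36 ± 0.13) and IsoAlloLCA (0.36 ± 0.13). The part of these markers in the results was not tested. Levels below are normalised CPM (counts scaled to a common library size), listed for replicates 1, 2 and 3. A value in brackets beside a gene is its log2 fold change in edgeR, with ± its SE (n = 3 libraries a group). Genes are said to have risen or fallen where the p, adjusted by Benjamini and Hochberg's method over 13044 genes, was under 0.05. In bulk RNA, fewer cells of a type and less RNA per cell cannot be told apart.

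The 5 unconjugated acids lowered these genes to very different depths, while with the 2 taurine conjugates their sum was not below control. Summed over the 18 early and late enzymes, the level was 1431 ± 57.1 CPM with LCA, 1982 ± 91.1 with IsoLCA, 1056 ± 89.6 with IsoAlloLCA, 1896 ± 44.1 with DehydroLCA, 1584 ± 38.1 with UDCA, 2345 ± 61.2 with TCDCA, 2504 ± 161 with TCA and 2213 ± 88.5 in control (SD, n = 3 each). As a share of the control mean the sums were 64.7%, 89.6%, 47.7%, 85.7%, 71.6%, 106% and 113%, in the same order of acids. Each library of the unconjugated acids lay below the lowest control library (2114 CPM). The TCA libraries lay above the highest control library, while the lowest TCDCA library stood level with it (2287 CPM with TCDCA and 2286 CPM in control). All 7 comparisons share the 3 control libraries.

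With LCA, 25 of the 32 members fell and 3 rose, where 18.8% of all tested genes fell and 17.7% rose. With IsoAlloLCA, 25 fell and 4 rose, where 27.8% of all tested genes fell and 30.6% rose. With UDCA, 23 fell and 1 rose, where 10.7% of all fell and 9.18% rose. IsoLCA and DehydroLCA gave 14 and 15 falls and 1 and 0 rises, where 6.12% and 3.41% of all tested genes fell and 3.73% and 2.41% rose. With DehydroLCA, 1 member was higher at an unadjusted p under 0.05 and DESeq2 called 0 rises. The conjugates did not show this pattern of falls. With TCDCA, 3 members fell and 4 rose, against 8.04% and 5.08% of all tested genes, so the share of members that fell (9.38%) was near the background. With TCA, 0 fell and 2 rose in edgeR, against 0.353% and 0.0843% of all tested genes. At an unadjusted p under 0.05, 2 members were lower and 12 higher with TCA, and DESeq2 also called 0 falls and 2 rises. The median log2 fold change over the 32 members was -0.48 with LCA, -0.15 with IsoLCA, -0.63 with IsoAlloLCA, -0.17 with DehydroLCA, -0.36 with UDCA, -0.01 with TCDCA and 0.08 with TCA, while that of all tested genes lay between 0.00 and 0.03.

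Of the called members, those that kept their call in each of the 6 fits that left out 1 library were 24 of 28 with LCA, 27 of 29 with IsoAlloLCA, 20 of 24 with UDCA, 7 of 15 with IsoLCA, 9 of 15 with DehydroLCA, 3 of 7 with TCDCA and 0 of 2 with TCA. The IsoLCA count was 9 without IsoLCA replicate 2, 8 without Control replicate 2 and 8 without Control replicate 3. The DehydroLCA count was 9 without Control replicate 2. The TCDCA count was 4 without TCDCA replicate 2, TCDCA replicate 3 or Control replicate 2. The TCA count was 0 without TCA replicate 1 or any control replicate and 1 without TCA replicate 3. Without TCA replicate 2 it was 1, and that member had not been called with all libraries.

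**Figure D1:**
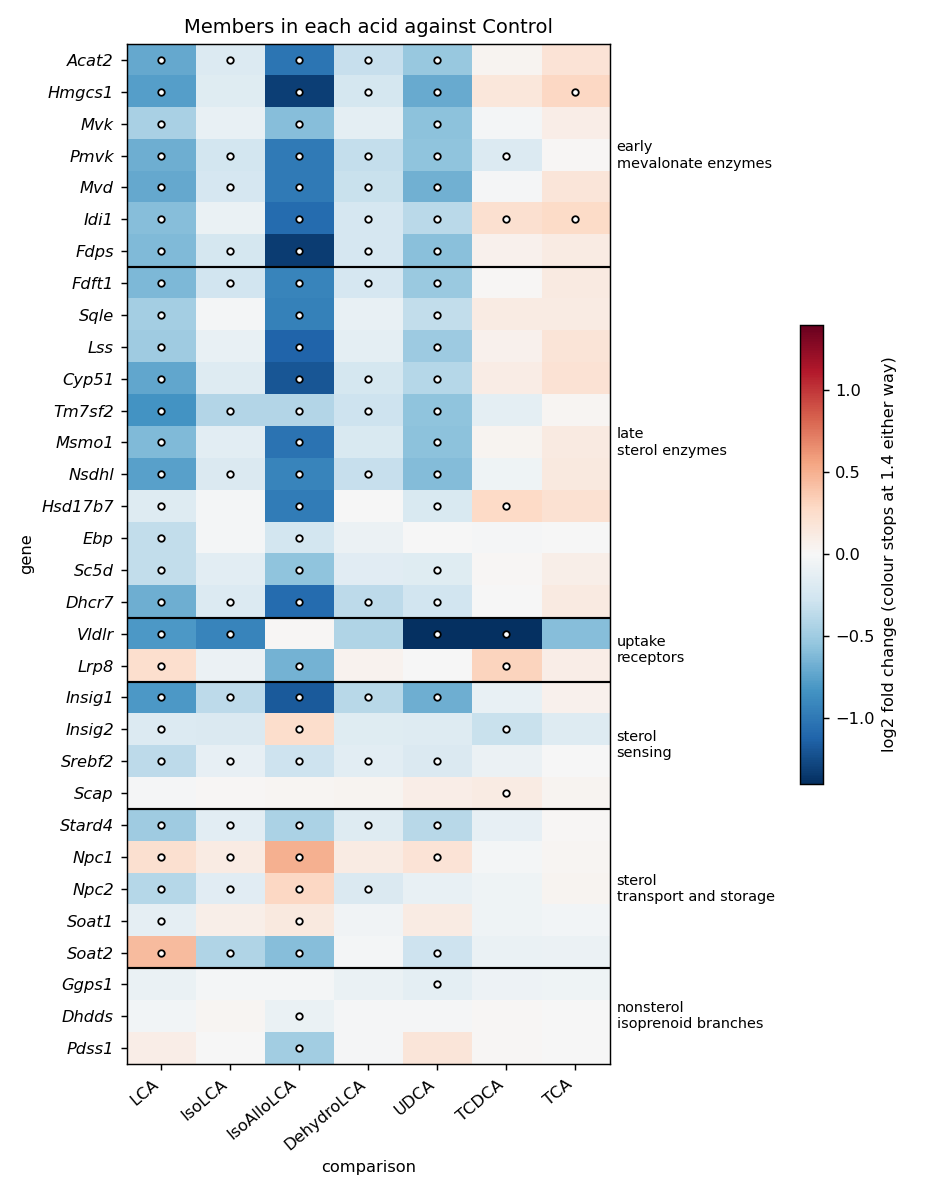
log2 fold change of each of the 32 members (rows, by role) in each acid against control (columns, 3 libraries against 3), with a circle where the edgeR adjusted p was under 0.05. The enzyme rows are blue in the 5 unconjugated acids, deepest with IsoAlloLCA, and near white or pale red with TCDCA and TCA, while Vldlr, Npc1 and Soat2 have other patterns.

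The early enzymes convert acetyl-CoA to farnesyl pyrophosphate, and all 7 fell with LCA, IsoAlloLCA and UDCA. Hmgcs1, which makes HMG-CoA, had 187, 163 and 172 CPM with IsoAlloLCA, 264, 252 and 247 CPM with LCA and 269.7, 255 and 273 CPM with UDCA, against 415, 452 and 430.4 CPM in control. No library of these acids reached the lowest control library, and the log2 fold changes were -1.31 ± 0.06, -0.77 ± 0.06 and -0.70 ± 0.06 (adjusted p = 3.51e-15, 2.9e-10 and 1.6e-08, edgeR). Fdps, the synthase of farnesyl pyrophosphate, had 97.04, 82.1 and 86.4 CPM with IsoAlloLCA against 209, 234 and 225 CPM in control (-1.33 ± 0.06), the largest fall of any member with that acid. Its IsoAlloLCA mean was 39.8% of the control mean. Fdps had 151, 136 and 146 CPM with LCA (-0.62 ± 0.06) and 156, 146 and 142 CPM with UDCA (-0.59 ± 0.06), again below every control library. Idi1, the isomerase of the isoprenoid units, had 70.04, 55.03 and 61.4 CPM with IsoAlloLCA and 94.1, 82.8 and 83.6 CPM with LCA, against 125, 134 and 134 CPM in control (-1.08 ± 0.07 and -0.59 ± 0.06). Acat2, the cytosolic thiolase that joins acetyl-CoA units, had 49.3, 41.95 and 46.3 CPM with IsoAlloLCA and 59.7, 53.9 and 55.4 CPM with LCA, against 87.1, 96.5 and 95.1 CPM in control (-1.02 ± 0.06 and -0.72 ± 0.05). The kinases and decarboxylase that act on mevalonate also fell. Mvk had the smallest fold change of the early enzymes with LCA and IsoAlloLCA (-0.46 and -0.60), while Pmvk (-0.69 and -0.99) and Mvd (-0.72 and -0.99) were lower still.

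With DehydroLCA and IsoLCA the early enzymes stood closer to control. With DehydroLCA 6 of 7 fell, from -0.33 (Pmvk) to -0.23 (Idi1), and Mvk (-0.13) did not pass. The calls of Hmgcs1 and Idi1 were lost without DehydroLCA replicate 3 or Control replicate 2 (highest adjusted p = 0.0736) and without DehydroLCA replicate 1 or 3 or Control replicate 2 or 3 (highest adjusted p = 0.137), and that of Fdps without Control replicate 2 (highest adjusted p = 0.0821). With IsoLCA 4 of 7 fell, namely Pmvk (-0.25 ± 0.06), Fdps (-0.24 ± 0.06), Mvd (-0.24 ± 0.06) and Acat2 (-0.19 ± 0.05). The call of Mvd was lost without IsoLCA replicate 1 or Control replicate 2 (highest adjusted p = 0.0826) and that of Acat2 without IsoLCA replicate 2 or Control replicate 2 or 3 (highest adjusted p = 0.113). Hmgcs1 had 399, 372 and 384 CPM with IsoLCA, each library below the control libraries, yet its -0.17 ± 0.06 did not pass (adjusted p = 0.0684).

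With the conjugates a few early enzymes rose. Hmgcs1 had 543, 574 and 464 CPM with TCA against 415, 452 and 430.4 CPM in control and rose by a log2 fold change of 0.29 ± 0.06 (adjusted p = 0.0204), with all 3 TCA libraries above the control libraries. Idi1 rose with TCA (0.27 ± 0.06, adjusted p = 0.0483) and with TCDCA (0.22 ± 0.06, adjusted p = 0.0198). Pmvk, a kinase of the same arm, had 48.4, 45.8 and 50.6 CPM with TCDCA against 51.7, 56.98 and 56.2 CPM in control and fell (-0.19 ± 0.06). None of these 4 calls was kept in every fit that left out a library: Hmgcs1 with TCA lost its call without TCA replicate 1 or 2 or Control replicate 1, 2 or 3 (highest adjusted p = 0.117), and Idi1 with TCA without TCA replicate 1, 2 or 3 or Control replicate 1, 2 or 3 (highest adjusted p = 0.204). With TCDCA, Idi1 lost its call without TCDCA replicate 2 or 3 or Control replicate 1 (highest adjusted p = 0.0882) and Pmvk without TCDCA replicate 1 or 2 or Control replicate 2 or 3 (highest adjusted p = 0.132). With TCA, 17 of the 18 early and late enzymes had a log2 fold change above 0 (up to 0.29), and 2 of them passed the test. The 95% intervals of the 18 ran from -0.12 to 0.41 with TCA and from -0.30 to 0.41 with TCDCA.

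The promoters of 3 members that fell with most unconjugated acids, and of Vldlr, are shown. Factors of sterol control are known to bind promoters of genes of this pathway beside the factor NF-Y. Binding at the promoters shown was not measured. RefSeq windows of 300 bases (GRCm38.p6, 250 before to 50 after a start) were matched for 26 of the 32 members. A script searched both strands for the sterol regulatory element core TCACNCCAC, the NF-Y box CCAAT and the E-box CACGTG, none of which contains another. For 23 members a window began at the start of the transcript in the deposited table, and 18 of these (78.3%) held an NF-Y box, 1 (4.35%) the element core and 4 (17.4%) an E-box. Among 8299 such windows of all tested genes, the shares were 39.3%, 1.04% and 10.1%. The element core was that of Hmgcs1. Acat2 and Dhcr7 also fell with each of the 5 unconjugated acids, and their windows at that start held 0 matches to any of these motifs. A Dhcr7 window at another start held 2 NF-Y boxes. Other members that fell with as many acids are not shown. A match is only a run of letters, and no test was made of these shares. Capitals mark the element core and the NF-Y boxes in the promoters of Hmgcs1, Nsdhl and Insig1, which fell with at least 4 of the 5 unconjugated acids, and of Vldlr, which fell with LCA, IsoLCA, UDCA and TCDCA and overlapped the control level with IsoAlloLCA (0.02 ± 0.19).
Hmgcs1 promoter, chr13:119690101-119690400, plus strand: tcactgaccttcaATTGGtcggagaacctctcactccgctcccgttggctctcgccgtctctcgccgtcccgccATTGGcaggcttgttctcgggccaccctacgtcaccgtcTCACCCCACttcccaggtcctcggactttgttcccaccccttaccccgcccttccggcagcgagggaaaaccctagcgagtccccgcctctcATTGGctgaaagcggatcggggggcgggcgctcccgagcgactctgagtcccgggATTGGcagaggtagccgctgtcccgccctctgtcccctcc
Nsdhl promoter, chrX:72918271-72918570, plus strand: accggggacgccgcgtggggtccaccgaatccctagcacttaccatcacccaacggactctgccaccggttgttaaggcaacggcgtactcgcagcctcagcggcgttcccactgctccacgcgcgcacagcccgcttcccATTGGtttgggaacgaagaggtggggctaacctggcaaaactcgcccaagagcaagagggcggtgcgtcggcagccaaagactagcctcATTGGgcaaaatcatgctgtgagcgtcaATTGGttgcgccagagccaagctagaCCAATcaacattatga
Insig1 promoter, chr5:28071162-28071461, plus strand: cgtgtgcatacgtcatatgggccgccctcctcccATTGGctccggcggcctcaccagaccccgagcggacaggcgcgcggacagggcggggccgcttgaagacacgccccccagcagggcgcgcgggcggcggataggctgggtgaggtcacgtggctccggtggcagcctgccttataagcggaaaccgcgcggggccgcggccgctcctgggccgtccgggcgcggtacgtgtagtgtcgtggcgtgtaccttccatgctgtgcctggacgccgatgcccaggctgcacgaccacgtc
Vldlr promoter, chr19:27216770-27217069, plus strand: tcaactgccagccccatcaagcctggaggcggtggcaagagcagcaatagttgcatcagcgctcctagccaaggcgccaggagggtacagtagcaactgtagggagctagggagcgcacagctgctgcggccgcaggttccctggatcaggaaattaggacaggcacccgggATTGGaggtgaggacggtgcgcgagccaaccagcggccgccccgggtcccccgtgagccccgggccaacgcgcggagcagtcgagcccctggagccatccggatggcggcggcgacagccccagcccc

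The late enzymes build squalene, close it to lanosterol and trim it to cholesterol. All 11 fell with LCA and IsoAlloLCA, 10 with UDCA, 5 with DehydroLCA, 4 with IsoLCA, and 0 with either conjugate, where edgeR at an unadjusted p under 0.05 and DESeq2 also found 0 falls. Cyp51, a sterol demethylase, had 162, 127 and 147 CPM with IsoAlloLCA, 216, 195 and 194 CPM with LCA and 253, 246 and 261 CPM with UDCA, against 322, 342 and 339 CPM in control. It fell with all 3 (-1.20 ± 0.07, -0.73 ± 0.06 and -0.40 ± 0.06), and with DehydroLCA (-0.24 ± 0.06), the DehydroLCA call being lost without DehydroLCA replicate 1 or 3 or Control replicate 2 or 3 (highest adjusted p = 0.105). Sqle, the squalene epoxidase, had 99.3, 79.9 and 93.9 CPM with IsoAlloLCA and 134, 122 and 123 CPM with LCA, against 167, 178 and 181 CPM in control (-0.95 ± 0.06 and -0.47 ± 0.06). Lss, the lanosterol synthase, had 74.2, 67.2 and 76.2 CPM with IsoAlloLCA, against 152, 162 and 158 CPM in control (-1.12 ± 0.06). Lss fell to 109, 108 and 116 CPM with LCA and 115, 100.5 and 116 CPM with UDCA (-0.50 ± 0.06 and -0.51 ± 0.06). Msmo1, an oxidase of methyl sterols, had 56.6, 44.8 and 51.3 CPM with IsoAlloLCA and 72.1, 66.9 and 64.5 CPM with LCA, against 98.5, 109 and 105 CPM in control (-1.04 ± 0.07 and -0.62 ± 0.07).

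The fold changes of the last steps were uneven. Dhcr7, the final reductase, fell with each unconjugated acid: -1.08 ± 0.06 with IsoAlloLCA, -0.69 ± 0.05 with LCA, -0.37 ± 0.05 with DehydroLCA, -0.27 ± 0.05 with UDCA and -0.19 ± 0.05 with IsoLCA, the IsoLCA call being lost without IsoLCA replicate 2 or 3 or Control replicate 2 or 3 (highest adjusted p = 0.104). Ebp, the sterol isomerase, fell with LCA (-0.35 ± 0.05) and IsoAlloLCA (-0.25 ± 0.05) and was close to control elsewhere, at -0.01 with UDCA (95% interval -0.12 to 0.10). Sc5d, the desaturase before Dhcr7, had smaller falls than most late enzymes, at -0.34 ± 0.05 with LCA, -0.56 ± 0.05 with IsoAlloLCA and -0.17 ± 0.05 with UDCA, the UDCA call being lost without UDCA replicate 1 or 2 or Control replicate 2 (highest adjusted p = 0.0893). Hsd17b7, a ketoreductase of sterol demethylation, fell to 18.1 ± 2.44 CPM with IsoAlloLCA, against 35.4 ± 1.14 CPM in control (SD, n = 3 each, log2 fold change -0.97 ± 0.07). Its falls with LCA (-0.18 ± 0.06) and UDCA (-0.22 ± 0.06) were small and were lost without LCA replicate 3 or Control replicate 2 (highest adjusted p = 0.0865) and without UDCA replicate 1 or 2 or Control replicate 2 (highest adjusted p = 0.0772). It rose with TCDCA, where its libraries had 42.2, 42.9 and 43.7 CPM against 34.3, 36.6 and 35.3 CPM in control (0.28 ± 0.06, adjusted p = 0.00271). Tm7sf2, a scarce sterol reductase at 10.3 ± 0.16 CPM in control, had its deepest fall with LCA (-0.83 ± 0.07) and not with IsoAlloLCA (-0.41 ± 0.07). Tm7sf2 shares 532 exon bases with Vps51 on the same strand, so its counts are uncertain. Fdft1, the squalene synthase, and Nsdhl, a sterol dehydrogenase, fell with each unconjugated acid, with -0.93 and -0.92 for IsoAlloLCA, -0.23 and -0.33 for DehydroLCA, and -0.27 and -0.20 for IsoLCA. The Nsdhl call with IsoLCA was lost without IsoLCA replicate 2 or 3 or Control replicate 2 or 3 (highest adjusted p = 0.12). Fdft1 shares 774 exon bases with Ctsb, and Cyp51 shares 166 with Akap9. Both of those genes lie on the opposite strand, and their reads may be mixed in.

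**Figure D2:**
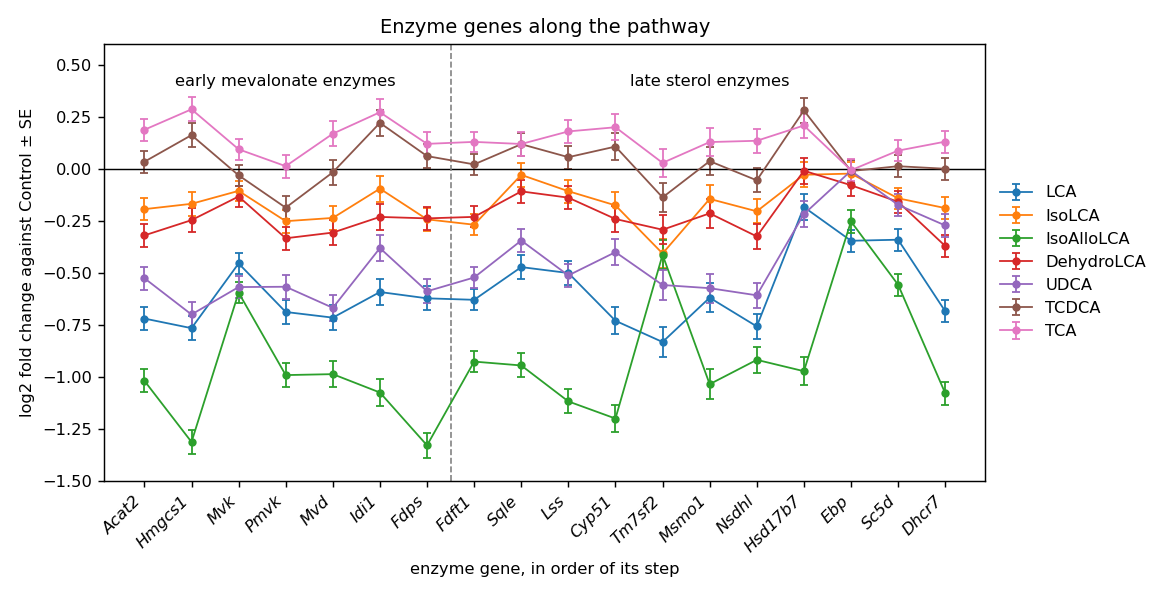
log2 fold change against control (points) with its SE (bars) for the 18 enzyme genes in the order of their steps, 1 line per acid, each from 3 libraries against 3. IsoAlloLCA is lowest at most steps, comes nearer the other acids at Mvk and Sc5d and is not the lowest at Tm7sf2 and Ebp, while TCA and TCDCA stay between -0.19 and 0.29.

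The early and late steps are set side by side by their medians. The median log2 fold change of the 7 early and the 11 late enzymes was -0.69 and -0.62 with LCA, -1.02 and -0.95 with IsoAlloLCA, -0.57 and -0.40 with UDCA, -0.25 and -0.21 with DehydroLCA, and -0.19 and -0.15 with IsoLCA. The widest gap was with UDCA, where 7 of 7 early and 10 of 11 late enzymes fell, and the range within each set was wider than that gap (-0.70 to -0.38 for early and -0.61 to -0.01 for late enzymes). With DehydroLCA, 6 of 7 early and 5 of 11 late enzymes fell. The difference between the sets was not tested. On a per-length scale in control cells, Fdps (154 CPM per kb) and Hmgcs1 (121) had the highest levels of the enzymes, and Hsd17b7 (7.75) and Tm7sf2 (6.99) the lowest. Fdps shares 1124 exon bases with the annotated gene Gm43738, and Hmgcs1 shares 557 with an antisense gene, so part of their counts may belong to those.

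Among the sensing genes, Insig1 followed the enzymes and Scap was called with none of the 5 unconjugated acids. Insig1, whose product retains Scap and whose gene is itself known to be switched on when sterol is low, had 73.6, 64.2 and 68.8 CPM with IsoAlloLCA, 93.8, 86.1 and 87.8 CPM with LCA and 94.8, 88.6 and 108 CPM with UDCA, against 153, 159 and 155 CPM in control. It fell with each of the 5 unconjugated acids and kept these calls whichever library was left out: -1.18 ± 0.07, -0.80 ± 0.07, -0.68 ± 0.07, -0.39 ± 0.07 with DehydroLCA and -0.37 ± 0.07 with IsoLCA. With TCDCA and TCA it had 141, 141 and 153 CPM and 156, 175 and 158 CPM, around the control libraries, and did not pass (-0.10 ± 0.06 and 0.06 ± 0.06). Srebf2, which encodes the factor itself, had 351, 354 and 336 CPM with LCA and 383, 349 and 370.1 CPM with IsoAlloLCA, against 432, 458 and 453 CPM in control. Its falls were shallower than those of Insig1: -0.37 ± 0.03 with LCA, -0.28 ± 0.03 with IsoAlloLCA, -0.20 ± 0.03 with UDCA, -0.14 ± 0.03 with DehydroLCA and -0.12 ± 0.03 with IsoLCA. Its calls were lost without DehydroLCA replicate 1 or Control replicate 2 (highest adjusted p = 0.0696) for DehydroLCA and without IsoLCA replicate 1, 2 or 3 or Control replicate 2 or 3 (highest adjusted p = 0.141) for IsoLCA. Insig2, the other Insig gene, had 28.2, 27.2 and 26.1 CPM with IsoAlloLCA against 22.7, 22.6 and 23.4 CPM in control and rose (0.25 ± 0.07), opposite to Insig1. Insig2 fell with TCDCA (-0.31 ± 0.07) and LCA (-0.19 ± 0.07), the LCA call being lost without LCA replicate 1 or 2 or Control replicate 2 or 3 (highest adjusted p = 0.0971). Scap, the carrier, lay between -0.01 and 0.10 with the unconjugated acids, none of which passed. It had 143, 146 and 142 CPM with TCDCA against 134, 129 and 135 CPM in control, and this rise (0.11 ± 0.04) was lost in each of the 6 fits that left out a library (highest adjusted p = 0.193). Scap shares 985 exon bases with 5830462I19Rik on the opposite strand, whose reads may be mixed in.

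The uptake receptors had an order of acids unlike that of the enzymes. Vldlr, a lipoprotein receptor named here after its values were seen, was scarce, and had 3.18, 3.37 and 3.47 CPM with TCDCA, 4.41, 3.00 and 3.85 CPM with UDCA, 6.92, 6.57 and 7.34 CPM with IsoLCA and 7.23, 8.91 and 6.52 CPM with LCA, against 11.6, 16.5 and 11.6 CPM in control. No library of these 4 groups reached the lowest control library. The falls were -1.98 ± 0.23 with TCDCA (adjusted p = 1.52e-06), -1.82 ± 0.23 with UDCA (adjusted p = 2.7e-06), -0.93 ± 0.20 with IsoLCA and -0.81 ± 0.20 with LCA, and each kept its call whichever library was left out. With IsoAlloLCA, the acid that lowered the enzymes most, Vldlr had 13.97, 14.7 and 11.2 CPM and 0.02 ± 0.19, which did not pass (95% interval -0.38 to 0.41). With TCA its libraries spread from 4.54 to 12.6 CPM, overlapping control (-0.60 ± 0.20), and with DehydroLCA it gave -0.42 ± 0.20. Neither passed. Lrp8, another receptor of the same family and the more abundant in control cells per kb (9.73 against 1.60 CPM per kb for Vldlr in control), had 43.5, 44.04 and 47.4 CPM with IsoAlloLCA against 74.2, 69.3 and 68.97 CPM in control and fell (-0.66 ± 0.08). Lrp8 had 87.04, 84.5 and 91.9 CPM with TCDCA and 80.3, 85.9 and 83.7 CPM with LCA, and rose with both (0.31 ± 0.08 and 0.23 ± 0.08). Those calls were lost without TCDCA replicate 3 or Control replicate 2 (highest adjusted p = 0.0556) and without LCA replicate 2 or 3 or Control replicate 2 or 3 (highest adjusted p = 0.0907).

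**Figure D3:**
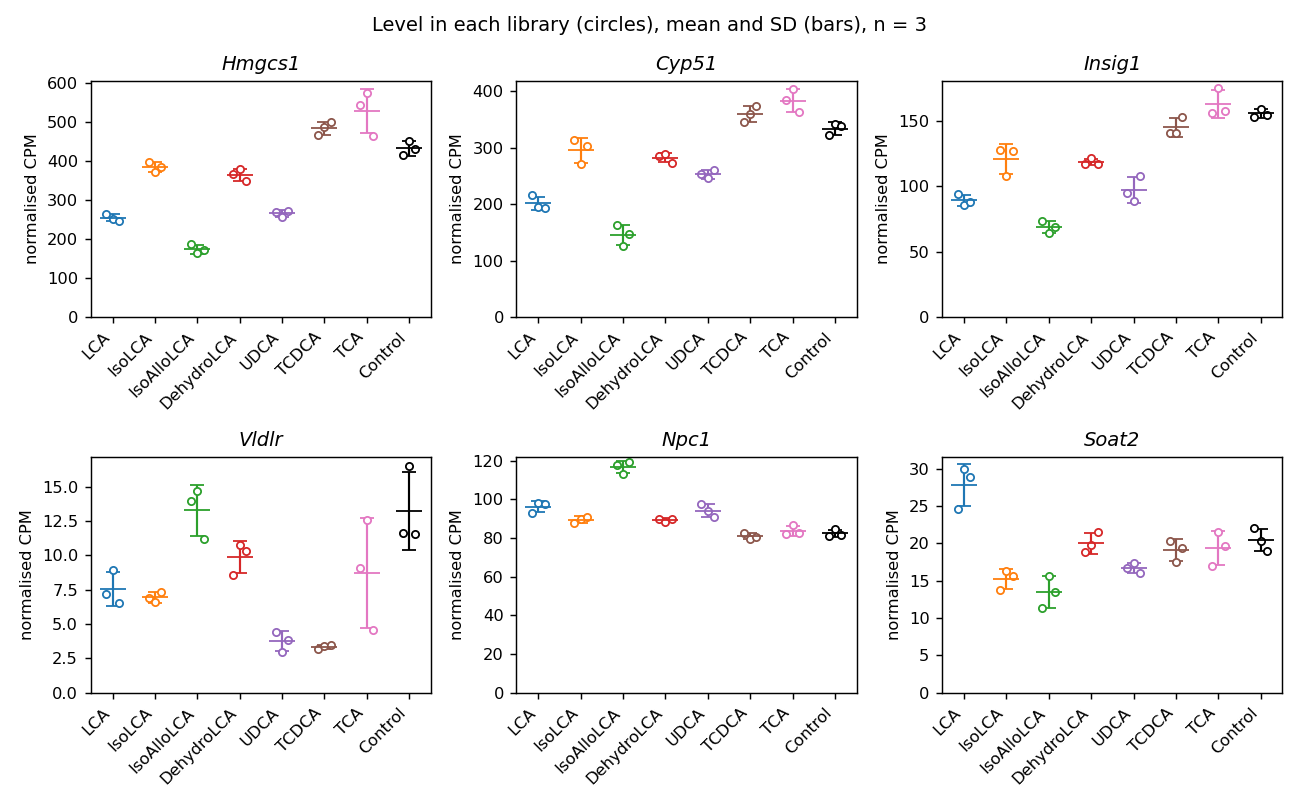
Normalised CPM of 6 members in each of the 24 libraries (circles), with the mean (dash) and SD (bar) of 3 libraries, acids to the left and control at the right. Hmgcs1, Cyp51 and Insig1 are lowest with IsoAlloLCA, Vldlr is lowest with UDCA and TCDCA and at the control level with IsoAlloLCA, Npc1 is highest with IsoAlloLCA, and Soat2 is above control with LCA alone.

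Transport and storage genes moved in both directions. Npc1, which exports cholesterol from lysosomes, rose with 4 of the 5 unconjugated acids: it had 118, 113 and 119 CPM with IsoAlloLCA, 92.8, 98.1 and 97.8 CPM with LCA and 97.9, 94.1 and 90.7 CPM with UDCA, against 81.3, 84.7 and 81.6 CPM in control. The rises were 0.50 ± 0.04, 0.22 ± 0.04 and 0.19 ± 0.04, with no overlap with control. A smaller rise with IsoLCA (0.12 ± 0.04) was lost without IsoLCA replicate 2 or 3 or Control replicate 1 or 3 (highest adjusted p = 0.148), and the difference with DehydroLCA (0.12 ± 0.04) did not pass the test. Npc1 shares 511 exon bases with Rmc1 on the opposite strand, whose reads may be mixed in. Npc2, its partner in the lysosome lumen, had 215, 212 and 196 CPM with IsoAlloLCA and 137, 122 and 129 CPM with LCA, against 166, 172 and 173 CPM in control. It rose with IsoAlloLCA (0.29 ± 0.04) and fell with LCA (-0.40 ± 0.04) and DehydroLCA (-0.20 ± 0.04). Its fall with IsoLCA (-0.15 ± 0.04) was lost without IsoLCA replicate 1 or 3 or Control replicate 2 or 3 (highest adjusted p = 0.0757). The myeloid marker sum, mostly Cd68, was also higher in the IsoAlloLCA libraries, and its part in the rises of Npc1 and Npc2 was not tested.

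Soat2, an enzyme that esterifies cholesterol for storage, rose with 1 unconjugated acid and fell with 3. It had 24.6, 29.9 and 28.9 CPM with LCA, 11.3, 15.7 and 13.5 CPM with IsoAlloLCA and 13.7, 16.2 and 15.7 CPM with IsoLCA, against 21.99, 20.3 and 19.03 CPM in control. It rose with LCA (0.44 ± 0.09, adjusted p = 0.000662) and fell with IsoAlloLCA (-0.60 ± 0.10, adjusted p = 2.24e-05) and IsoLCA (-0.43 ± 0.10, adjusted p = 0.00554). A fall with UDCA (-0.29 ± 0.10) was lost without UDCA replicate 1, 2 or 3 or Control replicate 1 or 2 (highest adjusted p = 0.139). Soat1, the other esterifying enzyme and the more abundant per kb in control (11.7 against 9.69 CPM per kb), had small changes: it rose with IsoAlloLCA (0.14 ± 0.05) and fell with LCA (-0.13 ± 0.05). Those calls were lost without IsoAlloLCA replicate 1 or Control replicate 3 (highest adjusted p = 0.0724) and without LCA replicate 2 or 3 or Control replicate 1 or 2 (highest adjusted p = 0.0977). Stard4, a cytosolic sterol carrier, went with the enzymes: it had 151, 143 and 143 CPM with LCA, 159, 147 and 148 CPM with IsoAlloLCA and 160.4, 151 and 162 CPM with UDCA, against 197, 211 and 208 CPM in control. It fell with these 3 acids (-0.50 ± 0.04, -0.44 ± 0.04 and -0.38 ± 0.04). Its smaller falls with DehydroLCA (-0.18 ± 0.04) and IsoLCA (-0.15 ± 0.04) were lost without DehydroLCA replicate 1 or 3 or Control replicate 2 (highest adjusted p = 0.0895) and without IsoLCA replicate 2 or Control replicate 2 or 3 (highest adjusted p = 0.146).

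Of the 3 genes of branches that leave the pathway after farnesyl or isopentenyl pyrophosphate, 2 fell with IsoAlloLCA and 1 with UDCA. Of all tested genes, 27.8% fell with IsoAlloLCA and 10.7% with UDCA. None of the 3 was called with the other acids. Ggps1, which makes the geranylgeranyl group for prenylated proteins, had log2 fold changes of -0.14 (UDCA) to -0.02 (IsoLCA) over the 7 acids. Its only call, a fall with UDCA, was lost without UDCA replicate 1 or 2 or Control replicate 2 or 3 (highest adjusted p = 0.127). Dhdds, a subunit of the enzyme that starts dolichol, lay between -0.10 and 0.03. Its fall with IsoAlloLCA (-0.10 ± 0.03) was lost without IsoAlloLCA replicate 1 (highest adjusted p = 0.0985). Pdss1, a subunit of the enzyme that makes the ubiquinone tail, had 17.7, 13.5 and 15.3 CPM with IsoAlloLCA against 21.7, 20.5 and 22.95 CPM in control and fell (-0.49 ± 0.08, adjusted p = 5.28e-06). With IsoAlloLCA the 95% interval was -0.12 to 0.06 for Ggps1, while Fdps, the step before it, fell (-1.33 ± 0.06).

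The response to related acids was also set side by side in 7 pairs of equal dose, which use no control library. Each p was adjusted over all tested genes of its pair, and adjusting over all 14 comparisons together ended 3 calls of the pairs, all of IsoAlloLCA against LCA (Mvk, Nsdhl and Srebf2). IsoLCA, the epimer of LCA at its hydroxyl group, had higher enzyme levels than LCA: 22 of 32 members were higher and 3 lower, where 15.8% of all tested genes were higher and 14.6% lower. Of the 18 enzymes, 17 were higher, from 0.20 ± 0.05 (Sc5d) to 0.60 ± 0.06 (Hmgcs1, 385 ± 13.5 CPM with IsoLCA and 254 ± 9.05 CPM with LCA, SD, n = 3 each), and Hsd17b7 (0.16 ± 0.06) did not pass. Soat2 went the other way, with 13.7, 16.2 and 15.7 CPM with IsoLCA and 24.6, 29.9 and 28.9 CPM with LCA (-0.87 ± 0.10, adjusted p = 4.12e-07). Lrp8 was also lower with IsoLCA (-0.32 ± 0.08), and Npc1 too (-0.10 ± 0.04), the Npc1 call being lost without IsoLCA replicate 1 or 2 or LCA replicate 2 or 3 (highest adjusted p = 0.138). DehydroLCA, which has a ketone in place of that hydroxyl, had 21 members higher than LCA and 2 lower, where 10.3% of all tested genes were higher and 7.49% lower. The same enzyme, Hsd17b7, was the 1 of 18 that did not pass (0.17 ± 0.06), and the others ran from 0.18 (Sc5d) to 0.54 (Tm7sf2). The Sc5d call was lost without DehydroLCA replicate 1 or 2 or LCA replicate 2 or 3 (highest adjusted p = 0.0991). Soat2 was lower with DehydroLCA than with LCA (-0.47 ± 0.09), and so was Npc1 (-0.10 ± 0.04), the Npc1 call being lost without DehydroLCA replicate 1, 2 or 3 or LCA replicate 2 or 3 (highest adjusted p = 0.164).

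Few of these genes differed between DehydroLCA and IsoLCA by the test. Of the 32 members 1 was called, Soat2, at 18.8, 19.7 and 21.5 CPM with DehydroLCA and 13.7, 16.2 and 15.7 CPM with IsoLCA (0.40 ± 0.10, adjusted p = 0.0378), where 1.2% of all tested genes were higher and 0.475% lower. That call was lost without DehydroLCA replicate 1, 2 or 3 or IsoLCA replicate 1 or 3 (highest adjusted p = 0.236). None of the 18 enzymes was called by edgeR, 3 were lower at an unadjusted p under 0.05, and DESeq2 called 1 lower. The log2 fold changes of the 18 were -0.18 to 0.11, and their 95% intervals ran from -0.29 to 0.26. The widest interval of a member was that of Vldlr, 0.07 to 0.94.

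**Figure D4:**
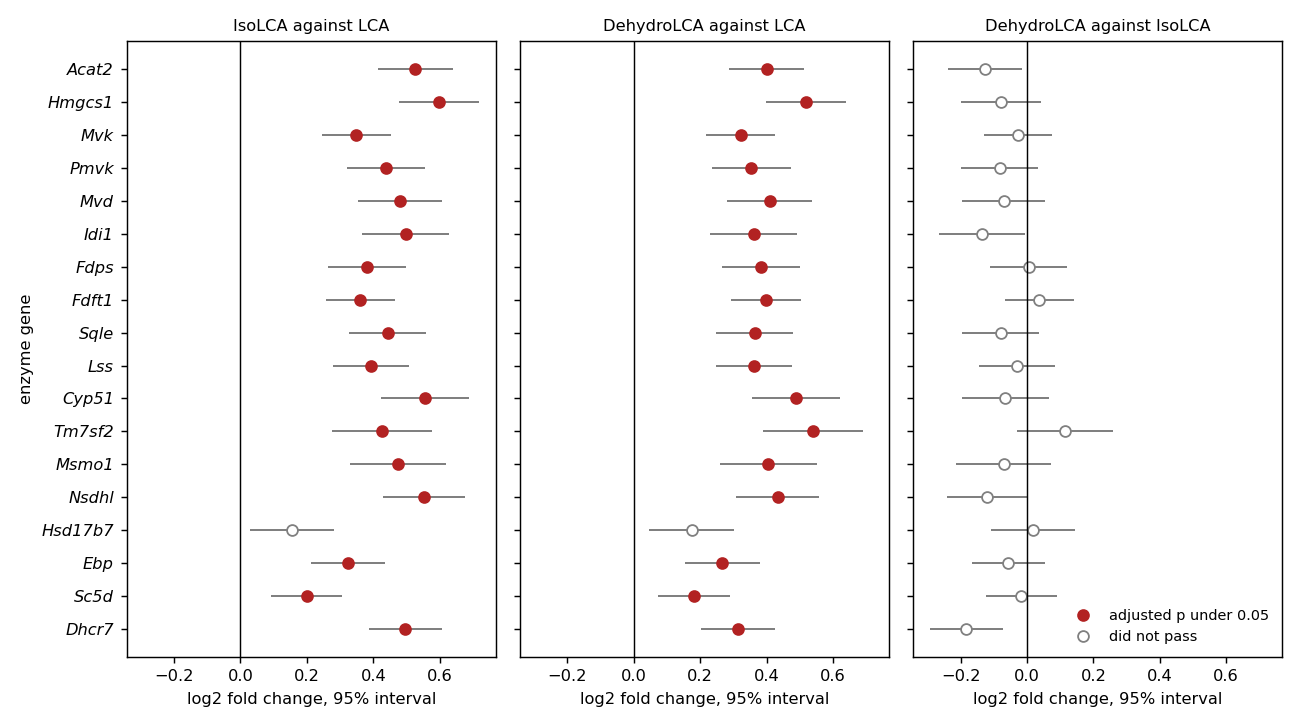
log2 fold change (points) and 95% interval (lines) of the 18 enzyme genes between pairs of acids at 50 µM, 3 libraries against 3. With LCA as the reference, 17 of 18 enzymes were called higher in IsoLCA and in DehydroLCA (filled points), and between DehydroLCA and IsoLCA none of the 18 was called and the points lie from -0.18 to 0.11 in log2.

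IsoAlloLCA differs from IsoLCA in the way the first rings are joined, and this pair had the largest fold changes of enzymes among the 7 pairs. In IsoAlloLCA 23 members were lower and 4 higher than in IsoLCA, where 28.1% of all tested genes were lower and 31.7% higher. All 27 calls were kept whichever library was left out. Hmgcs1 differed by -1.15 ± 0.06, Fdps by -1.09 ± 0.06 and Cyp51 by -1.03 ± 0.07. Tm7sf2 was the 1 enzyme not called (-0.01 ± 0.07, 95% interval -0.15 to 0.14). The 4 that were higher were Vldlr (0.94 ± 0.21), Insig2 (0.45 ± 0.07), Npc2 (0.44 ± 0.04) and Npc1 (0.38 ± 0.04). Against LCA, from which IsoAlloLCA differs in both respects, 20 members were lower and 7 higher, where 29.1% of all tested genes were lower and 32.3% higher. Enzymes ran from -0.79 ± 0.07 (Hsd17b7) to 0.42 ± 0.07 (Tm7sf2, higher with IsoAlloLCA). Soat2 was -1.04 ± 0.10 and Lrp8 -0.89 ± 0.08, both lower with IsoAlloLCA, while Npc2 (0.69 ± 0.04) and Vldlr (0.82 ± 0.20) were higher. The calls of Mvk (-0.14), Nsdhl (-0.16) and Srebf2 (0.08) in this pair were lost without IsoAlloLCA replicate 2 or LCA replicate 1 or 3 (highest adjusted p = 0.166), without IsoAlloLCA replicate 2 or LCA replicate 1 (highest adjusted p = 0.279) and without IsoAlloLCA replicate 1 or 3 or LCA replicate 1 or 3 (highest adjusted p = 0.233).

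UDCA carries a hydroxyl group that LCA lacks. Of the 7 early enzymes 2 were called, Idi1 (0.21 ± 0.06) and Acat2 (0.19 ± 0.06), both higher with UDCA, and the 95% intervals of the 7 ran from -0.22 to 0.34. The Idi1 call was lost without UDCA replicate 3 or LCA replicate 2 or 3 (highest adjusted p = 0.0885) and the Acat2 call without LCA replicate 2 (highest adjusted p = 0.0694). Of the 11 late enzymes 5 were higher with UDCA: Dhcr7 (72.4 ± 2.32 CPM with UDCA and 54.4 ± 3.31 CPM with LCA, 0.41 ± 0.05), Ebp (0.34 ± 0.05), Cyp51 (0.33 ± 0.06), Tm7sf2 (0.27 ± 0.08) and Sc5d (0.17 ± 0.05), the Sc5d call being lost without UDCA replicate 3 or LCA replicate 3 (highest adjusted p = 0.116). Vldlr (-1.01 ± 0.24), Soat2 (-0.73 ± 0.10) and Lrp8 (-0.24 ± 0.08) were lower with UDCA, the Lrp8 call being lost without UDCA replicate 1 or 2 or LCA replicate 2 or 3 (highest adjusted p = 0.17). Npc2 (0.30 ± 0.04), Soat1 (0.24 ± 0.05), Srebf2 (0.17 ± 0.03) and Scap (0.11 ± 0.04) were higher, the Scap call being lost without UDCA replicate 1 or LCA replicate 1 or 2 (highest adjusted p = 0.0975). In all, 11 of 32 members were higher and 3 lower, where 14.8% of all tested genes were higher and 12% lower.

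TCA carries a hydroxyl group that TCDCA lacks. The pair differed in Vldlr, at 9.12, 12.6 and 4.54 CPM with TCA and 3.18, 3.37 and 3.47 CPM with TCDCA (1.39 ± 0.24, adjusted p = 0.00125), with every TCA library above the TCDCA libraries. Pmvk was also higher with TCA (0.20 ± 0.06), a call lost without TCA replicate 1 or 2 or TCDCA replicate 1 or 2 (highest adjusted p = 0.238). Without TCA replicate 3 the count of members called in this pair was 7 instead of 2. These 2 were the members called, where 2.65% of all tested genes were higher and 0.958% lower, and the 95% intervals of the 18 enzymes ran from -0.20 to 0.32. The conjugates were given at 100 µM and the other acids at 50 µM, so no conjugate was tested directly against an unconjugated acid. Each was set against control alone.

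**Figure D5:**
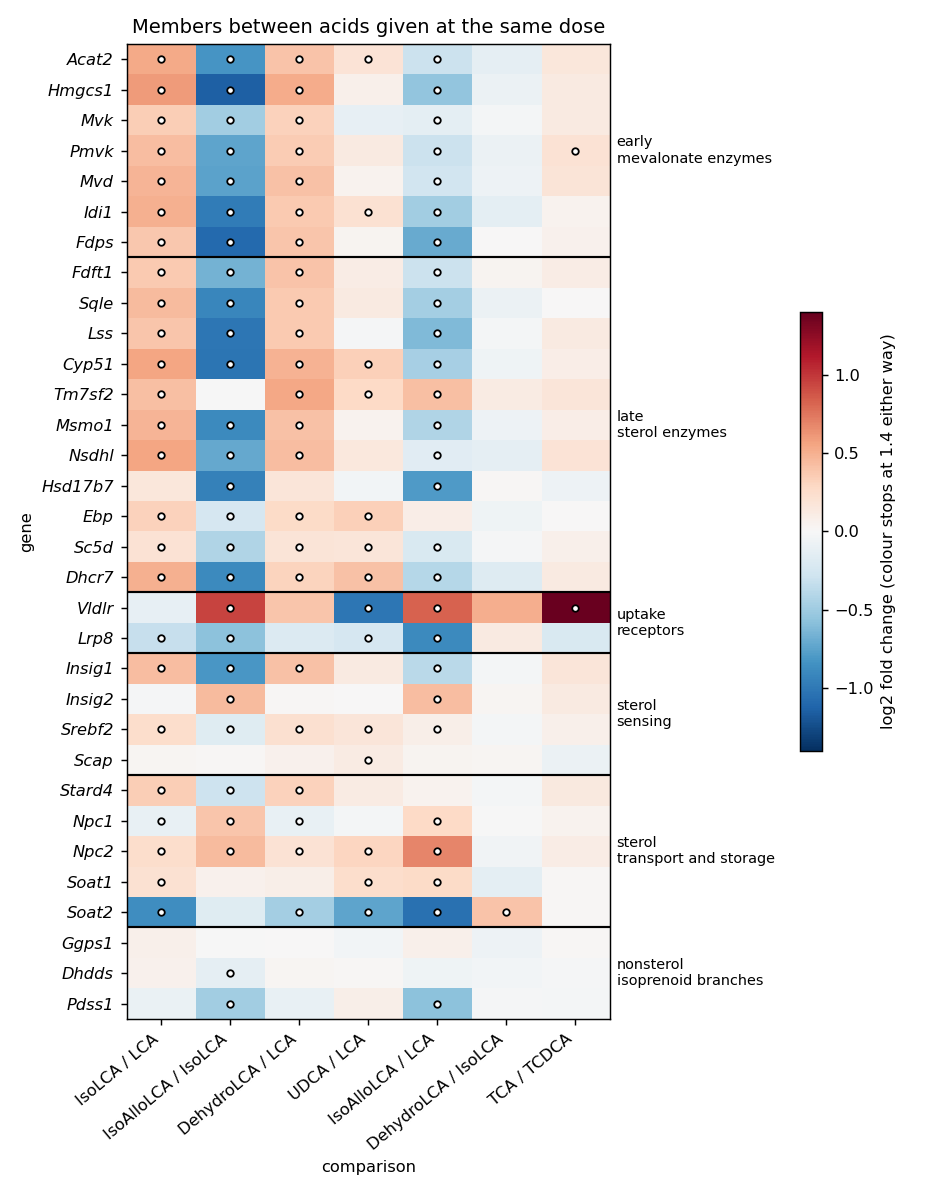
log2 fold change of each member (rows) between 2 acids of the same dose (columns, the acid named first over the other), with a circle where the edgeR adjusted p was under 0.05. Enzyme rows are red for IsoLCA and DehydroLCA over LCA, mostly blue for IsoAlloLCA over IsoLCA or LCA (Tm7sf2 is red over LCA and near 0 over IsoLCA), and near white for DehydroLCA over IsoLCA.

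Other genes around the pathway, 42 in 4 lists of which 38 could be tested, had calls in both directions. Over the 38, 5 rose and 7 fell with LCA, 14 rose and 10 fell with IsoAlloLCA, 5 rose and 2 fell with UDCA, and 5 fell with DehydroLCA, 3 with IsoLCA and 3 with TCDCA, with no rise called in those 3. The share of the 38 that fell was 18.4% with LCA (beside 18.8% of all tested genes), 26.3% with IsoAlloLCA (beside 27.8%), 7.89% with IsoLCA (beside 6.12%) and 7.89% with TCDCA (beside 8.04%), each near that of all genes. It was 5.26% with UDCA (beside 10.7%) and 13.2% with DehydroLCA (beside 3.41%). Of all tested genes, 17.7% rose with LCA, 30.6% with IsoAlloLCA and 9.18% with UDCA, so the counts of the 38 that rose are not read as a result about these lists. Among 6 tested enzymes outside the members, Acly, which supplies cytosolic acetyl-CoA, fell with IsoAlloLCA (-0.79 ± 0.05), LCA (-0.42 ± 0.05) and UDCA (-0.35 ± 0.05). With DehydroLCA it fell too (-0.23 ± 0.05). Acss2, another source of acetyl-CoA, fell with LCA (-0.71 ± 0.10), UDCA (-0.56 ± 0.10), DehydroLCA (-0.38 ± 0.10) and IsoAlloLCA (-0.37 ± 0.10), and with the conjugate TCDCA (-0.40 ± 0.10). Lbr, a lamina protein with sterol reductase activity, fell with LCA (-0.41 ± 0.03), IsoAlloLCA (-0.42 ± 0.03), IsoLCA (-0.24 ± 0.03) and DehydroLCA (-0.16 ± 0.03). Acat1, the mitochondrial thiolase, fell with IsoAlloLCA (-0.20 ± 0.05), LCA (-0.15 ± 0.05) and TCDCA (-0.15 ± 0.05) and had 0.05 ± 0.05 with UDCA, which did not pass. Of 9 regulators, Srebf1, which encodes the related factor of fatty acid synthesis, fell with LCA (-0.53 ± 0.04), DehydroLCA (-0.30 ± 0.04), IsoAlloLCA (-0.18 ± 0.04) and IsoLCA (-0.17 ± 0.04). Mylip, a ubiquitin ligase for lipoprotein receptors, rose with UDCA (0.39 ± 0.11) and fell with LCA (-0.49 ± 0.12) and DehydroLCA (-0.40 ± 0.12), and Erlin2, a membrane protein of the endoplasmic reticulum, rose with IsoAlloLCA (0.22 ± 0.05).

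Of the 9 transport genes outside the members, 6 rose and 1 fell with IsoAlloLCA, where 30.6% of all tested genes rose and 27.8% fell. Those that rose with IsoAlloLCA included the lysosomal genes Lipa (0.54 ± 0.05), whose enzyme frees cholesterol from its esters, and Scarb2 (0.54 ± 0.04), and the sterol carriers Gramd1a (0.50 ± 0.09) and Osbpl9 (0.39 ± 0.04). With LCA those 4 had 0.03, -0.05, 0.01 and -0.10, none of which passed. Cd68 rose with IsoAlloLCA too (1.12 ± 0.15), and its part in these rises was not tested. Of 14 genes that use isoprenoids, 1 rose and 4 fell with IsoAlloLCA and 2 rose with LCA. The share that fell with IsoAlloLCA, 28.6%, was near the 27.8% of all tested genes. The share that rose with LCA was 14.3%, beside 17.7% of all tested genes. These counts are not read as a result about the list. The genes called included the prenyltransferase genes Fntb (-0.25 ± 0.06), Pggt1b (-0.16 ± 0.05) and Rabggtb (-0.19 ± 0.05), which fell with IsoAlloLCA, and Icmt, a methyltransferase of prenylated proteins, which rose (0.12 ± 0.04).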

How the data were processed

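RNA of mouse CD8+ T cells was sequenced in 24 libraries, 3 in each of 8 groups, and titles gave group and replicate. Per the file headers, the deposited table of expected counts came from HOMER, which summed reads on the exons of mm10 RefSeq transcripts with 1 transcript kept for each of 24537 genes, and was not normalized. STAR, HOMER and DESeq2 are named without versions and GRCm38 and mm10 as builds, per the submitters' processing notes. No source used here gives the strand setting. The deposited estimated counts move in steps of 0.5 (29.4% were not whole) and were rounded, a 0.5 going up. Whole counts had been assumed when the tests were chosen, and the count test was kept. Reads of overlapping genes (11 members share 90 to 1124 exon bases with another gene in the GENCODE vM21 annotation) and of processed copies may have been divided or mixed.

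Rounded counts went into edgeR 4.0.16 under R 4.3.3. A quasi-likelihood model (glmQLFit, then glmQLFTest) held all 24 libraries with a term for each group and no block, TMM normalization (factors 0.971 to 1.05) and filterByExpr, which kept 13044 genes. The common coefficient that edgeR names biological variation was 4.41%, a spread between libraries that may be only technical. Dividing the size of a log2 fold change by the root of its F statistic gave its SE and, from that, its 95% interval, so both use a spread shared by the 24 libraries. A call means a Benjamini-Hochberg adjusted p under 0.05, adjusted over the genes of that comparison. The fit was also run on simulated counts with known changes, set in LCA alone and with the same spread for every gene. That setting is simpler than the data, so the run cannot speak for broad changes such as those with IsoAlloLCA. CPM were computed with the TMM-scaled library sizes. Promoter sequences and their coordinates are RefSeq's (GRCm38.p6), and exon overlaps were computed from the annotation, both on the build of the deposited table.

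Members and lists were chosen with earlier results of these data known. Values in each library are given for members called in 3 or more acids with a mean of at least 10 CPM, up to 4 per role in order of level, and for members that went against their role with a call. Vldlr, Hsd17b7 and Pdss1 lie outside this rule and were added after their values were seen. Genes outside the members are the 4 per list with the smallest adjusted p, of which 1 is not reported here. Chi-square per degree of freedom between libraries of 1 group was 2.84 to 18.7, and no library was treated as a duplicate of another. Alternatives were DESeq2 1.42.0, other scalings, no filter on low counts, the 6 libraries of a comparison alone, a replicate block, adjustment over all 14 comparisons together, and leaving out each library.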

Additional observations from a re-analysis of the deposited data

Results flagged for a closer look

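Members that moved in opposite directions with a pair of acids of the same dose, each with its own call against control, and that also differed in the direct test of that pair, were these. Soat2 rose with LCA and fell with IsoLCA, UDCA and IsoAlloLCA, and the direct differences were -0.87 for IsoLCA over LCA, -0.73 for UDCA over LCA and -1.04 for IsoAlloLCA over LCA (log2). Npc2 rose with IsoAlloLCA and fell with LCA and IsoLCA, with direct differences of 0.69 over LCA and 0.44 over IsoLCA. Insig2 rose with IsoAlloLCA and fell with LCA, a difference of 0.43. Soat1 did likewise, with 0.27. Lrp8 fell with IsoAlloLCA and rose with LCA, a difference of -0.89. Some of these calls against control were lost in at least 1 fit that left out a library. They were Insig2, Soat1 and Lrp8 with LCA, Soat1 with IsoAlloLCA, Soat2 with UDCA and Npc2 with IsoLCA. The 2 calls against control in a pair share the control libraries, while the direct test uses none of them. Groups of 3 libraries were not examined for single outlying libraries.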

How the results depend on the processing

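No log2 fold change called in a comparison with control changed sign, and signs in the 7 pairs of acids were not checked. Counts of called members kept their size within 1.5 times under each alternative in 11 of the 14 comparisons, libraries left out apart. The exceptions are the comparisons with the fewest calls. For TCA against control (2 members) the count was 1 with the size factors of DESeq2 in edgeR, 8 with p-values adjusted over all comparisons together and 0 with the 6 libraries alone. For DehydroLCA against IsoLCA (1 member) it was 3 with p-values adjusted over all comparisons, 2 with the 6 libraries alone and 2 with DESeq2, and scaling by library size alone called Dhcr7 in place of Soat2. For TCA against TCDCA (2 members) it was 6 with p-values adjusted over all comparisons and 9 with the 6 libraries alone. The cause was not tested. Which members were called could change where the count kept its size. With the 6 libraries alone, IsoLCA against control kept 11 of its 15 calls and gained Hmgcs1, which DESeq2 also called (adjusted p = 0.0474). Scaling by library size alone lost the calls of Hsd17b7, Insig2 and Soat1 with LCA, Dhdds with IsoAlloLCA and Soat2 with UDCA. With 1 library left out, counts ran from 8 to 14 for IsoLCA, 9 to 16 for DehydroLCA, 4 to 6 for TCDCA and 0 to 1 for TCA, each against control, from 0 to 1 for DehydroLCA against IsoLCA and from 1 to 7 for TCA against TCDCA. Replicate numbers were not taken to pair the libraries, since in 0 of 14 comparisons were the correlations of all 3 same-numbered pairs over 0.1. Their mean was 0.029 (-0.014 for other numbers), they were highest between IsoAlloLCA and IsoLCA (0.40, 0.33 and 0.07), and 15 of 24 libraries correlated best with their own number, a hint from the data and not the design. With a replicate block, 28 members were called for LCA, 16 for IsoLCA, 29 for IsoAlloLCA, 15 for DehydroLCA, 25 for UDCA, 7 for TCDCA and 2 for TCA against control. Scaling by library size alone put the median of all genes at most 0.092 from 0 on the log2 scale. Vldlr, at a few CPM, has the widest intervals of the members.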
